A study of Mus musculus with 12 samples.

Results

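The comparison described here set colonic epithelial cells of Nfkb2-/- mice against those of wild-type mice, all given dextran sulfate sodium (DSS). Its members were the samples titled as treated, 3 of each genotype, which are 6 of the 12 samples of the series. All mice were C57BL/6 and 7 to 9 weeks old. The 4 groups were wild type untreated, Nfkb2-/- untreated, wild type after 48 h of DSS and Nfkb2-/- after 48 h of DSS, each with 3 samples that the design text calls biological replicates. They are called WT untreated, KO untreated, WT DSS and KO DSS below, and a replicate is one sample. The labels describe the allele only as Nfkb2-/- and name no promoter or Cre, so the deletion is not described as limited to the epithelium. The epithelial cells were shaken off colon pieces in EDTA, and the labels name no sorting step. About 90% of such cells were typically negative for CD45.2, a leukocyte surface protein, and positive for EpCAM, an epithelial one, per the labels.

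Nfkb2 encodes p100, a protein that holds RelA and RelB complexes in the cytoplasm and that is cut to p52, a DNA-binding NF-kB subunit. Signals such as lymphotoxin release these complexes through the noncanonical branch of the pathway, while TNF and microbial products act through the canonical branch and IkB-alpha. DSS is a sulfated polysaccharide that injures the colonic epithelium when drunk, and epithelial cells respond by inducing antimicrobial, mucosal repair and cytokine genes. The title of the series states that an epithelial Nfkb2 pathway worsens intestinal inflammation by adding RelA complexes to the canonical NF-kB response, and the comparison asks which transcripts differ by genotype once the colon is exposed to DSS.

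The 6 libraries held 5595909 to 7353227 counts and 15786 to 16833 genes with at least 1 count. A level is given as CPM, the usual count per library total scaled by edgeR's TMM factors, and 3 counts in a library, the floor used for detection, equal 0.408 to 0.536 CPM. Over these 6 libraries the first principal component held 35.4% of the variance, with WT DSS at -37.4 to -25.5 and KO DSS at 26.4 to 35.9. Epithelial identity genes were high in every library: Epcam was at 2896, 3009 and 2501 CPM in WT DSS and at 2300.4, 2566 and 2762 CPM in KO DSS, and of 9 such genes Vil1 was the one that passed (-0.55, adjusted p = 0.0386), while Krt19 (-0.29, 0.114) and Krt20 (-0.37, 0.114) had negative differences that did not. The library numbers of the 3 WT DSS samples all come before those of the 3 KO DSS samples, so library order and genotype cannot be told apart in any result here.

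The deleted gene served as a check of the labels. Nfkb2 (ENSMUSG00000025225, chr19:46304320-46312385, plus strand of GRCm38, protein coding) was at 41.6, 46.1 and 39.6 CPM in the WT DSS libraries and at 19.6, 15.6 and 17.2 CPM in the KO DSS libraries. Every KO value was below every WT value, and the KO mean was 41.1% of the WT mean. The mean log2 CPM differed by -1.27, for which an exact two-sided permutation test gave p = 0.1, the smallest value that 20 splits of 3 against 3 allow, and edgeR gave log2 fold change -1.28 ± 0.20 (SE), adjusted p = 0.00224. The residual reads cannot be assigned to a part of the gene from a count per gene, and the labels do not say which exons the allele removes. Nfkb2 shares 531 exonic bases with AC114539.1 on the other strand, and reads of overlapping genes could not be told apart in these unstranded libraries. The untreated pair of groups differed by a similar amount (log2 fold change -1.36, adjusted p = 0.00123), with an interaction p of 0.976 after adjustment.

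Under DSS, 222 genes were higher and 168 were lower in KO than in WT, out of 12522 genes tested, which is 3.11% of the genes tested (1.77% higher and 1.34% lower). These shares are the background for every count of list members below. The threshold was a p under 0.05 in edgeR's quasi-likelihood F test after Benjamini-Hochberg adjustment, and genes under it are said to pass. The higher genes were led by interferon-induced antiviral genes, leukocyte transcripts and the sialyltransferase gene St6galnac1, and the lower genes by the acute-phase gene Lrg1, the antimicrobial lectin gene Reg3b, the surface protein gene Plet1 and the mucin gene Muc1. In 172 of the 390 genes the difference was at least 1 on the log2 scale (114 higher and 58 lower), and the median over all genes tested was 0.0027. In all 390 the 3 KO values lay outside the 3 WT values, which was also so for 11.7% of all genes tested with KO higher and for 10.6% with KO lower. The KO DSS mean was the highest of the 4 group means for 168 of the 222 higher genes, and the WT DSS mean was the highest for 111 of the 168 lower genes. In bulk RNA, fewer cells of a type and less RNA per cell cannot be told apart. Leaving out any 1 of the 6 libraries left 160 to 231 genes past the threshold, with 1 sample fewer on one side.

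**Figure D1:**
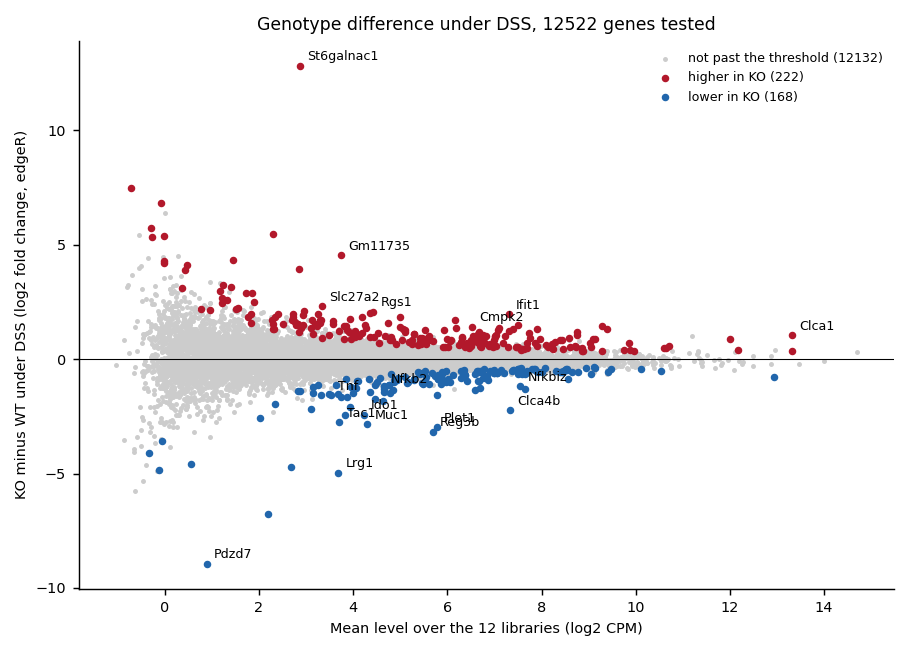
Each point is a gene; the x axis is its mean log2 CPM over the 12 libraries and the y axis its log2 fold change between KO and WT under DSS in edgeR. Red points are the 222 genes higher in KO, blue points the 168 lower, and grey points the genes not past the threshold; St6galnac1 and Pdzd7, at opposite ends, had 0 counts in 1 of the 2 genotypes under DSS.

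The other NF-kB subunit genes did not pass the test. Relb, the main partner of p52, was at 45.3, 49.3 and 45.8 CPM in WT DSS and 49.5, 62.1 and 59.4 CPM in KO DSS (log2 fold change 0.29, adjusted p = 0.37). Rela differed by 0.24 (adjusted p = 0.715), Nfkb1 by 0.16 (0.864) and Rel by -0.07 (0.959), with genotypes overlapping for Nfkb1 and Rel. Of 28 subunit and signalling genes tested, Nfkb2 itself was the one past the threshold, and their median was 0.09. The direction of Rel and Nfkb1 changed when single libraries were left out, so none is given for them.

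Genes that NF-kB induces did not move as one group. Over 3 lists of feedback inhibitors, cytokines and chemokines, and other targets, 49 genes were tested, 5 were higher and 2 lower in KO under DSS, and the median was 0.01. Over all genes tested, 1.77% were higher and 1.34% lower. The same 49 genes had a median of 0.41 between the untreated genotypes, where 12 were higher in KO and 0 lower, and in 9 of them the genotype difference under DSS was below the untreated one by the interaction test. Tnf, the cytokine that drives the canonical branch, was at 31.3, 30.4 and 32.1 CPM in WT DSS and 9.02, 9.79 and 12.3 CPM in KO DSS. All 3 WT values were above all 3 KO values, a 3.01-fold difference of the means (log2 fold change -1.59 ± 0.23 (SE), adjusted p = 0.0013). Without DSS the order was the opposite, with 3.64, 4.10 and 2.47 CPM in WT and 11.6, 15.01 and 15.9 CPM in KO (log2 fold change 2.05, adjusted p = 0.000254; interaction adjusted p = 5.54e-05). Nfkbiz, which encodes the nuclear cofactor IkB-zeta, was at 397, 356 and 382 CPM in WT DSS and 158, 184 and 158 CPM in KO DSS. The KO libraries under DSS lay close to the untreated WT libraries, at 139, 152 and 181 CPM, and the genotype difference was 2.27-fold (log2 fold change -1.18 ± 0.11 (SE), adjusted p = 2.89e-05).

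Nfkbia, which encodes IkB-alpha, the inhibitor of the canonical branch, was at 334, 337 and 303 CPM in WT DSS and 216, 249.2 and 279 CPM in KO DSS. These groups did not overlap, but the difference did not pass (log2 fold change -0.39, adjusted p = 0.0687), while the interaction did (-1.33, adjusted p = 0.000206), since untreated KO was above untreated WT by 0.94. Tnfaip3, which encodes the deubiquitinase A20, differed by -0.27 (adjusted p = 0.432). Bcl3, whose product binds p52 and p50 homodimers, was higher in KO DSS, at 25.6, 36.8 and 29.9 CPM against 13.5, 16.5 and 15.3 CPM (log2 fold change 1.02 ± 0.23 (SE), adjusted p = 0.0277). The chemokine genes Cxcl10 (8.81, 10.3 and 12.7 CPM in WT, 22.6, 34.4 and 34.4 CPM in KO) and Ccl20 (11.7, 9.47 and 8.81 in WT, 19.98, 19.4 and 17.7 in KO) and the ubiquitin-like gene Ubd (11.2, 12.3 and 16.3 in WT, 21.4, 31.7 and 32.01 in KO) were also higher in KO. Their log2 fold changes under DSS were 1.53, 0.93 and 1.10 (adjusted p = 0.0289, 0.0498 and 0.0146), against 2.35, 3.49 and 3.0 without DSS. Cxcl1, which encodes a neutrophil attractant, differed under DSS by 0.55 (adjusted p = 0.341). Tnf and Nfkbiz passed without any 1 of the 6 libraries, whereas Bcl3, Cxcl10, Ccl20 and Ubd lost the call in 5, 5, 6 and 4 of the 6 fits that each leave out 1 library, with adjusted p up to 0.138, 0.141, 0.184 and 0.0918.

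The largest decrease among the genes named by the fixed rule was in Lrg1, the gene of leucine-rich alpha-2-glycoprotein, a secreted acute-phase protein. Lrg1 (ENSMUSG00000037095, chr17:56119678-56122001, minus strand, protein coding) was at 314, 346 and 298 CPM in WT DSS and at 9.55, 8.75 and 12.5 CPM in KO DSS. The KO values under DSS were far below every WT DSS value and slightly above the untreated WT libraries, which held 4.37, 3.61 and 5.72 CPM. The means differed 31.1-fold (log2 fold change -4.95 ± 0.18 (SE), adjusted p = 9.18e-10), and adding the mean level of leukocyte markers as a term left the difference at -4.92 (adjusted p = 1.77e-05). That level moves with genotype, so the 2 terms share what they fit, here and in the paragraphs below. Nfkb2, the deleted gene, did not pass with that term either (-1.0, adjusted p = 0.216). A call lost with it therefore does not assign a difference to leukocytes. Of 20 acute-phase and STAT3 target genes tested, 5 were lower (1.34% of all genes tested were) and 0 higher in KO, though the median of the 20 was 0.04. The other 4 were Lbp, which encodes a lipopolysaccharide-binding protein, the complement gene C3, the cytokine signalling inhibitor Socs3 and the fucosyltransferase gene Fut2; the latter 2 fall outside the rule for named genes and were chosen after their values were seen. Lbp was at 72.1, 77.2 and 57.2 CPM in WT and 22.98, 19.6 and 31.5 CPM in KO, and C3 at 149, 107 and 122 CPM in WT and 55.3, 67.3 and 81.3 CPM in KO. For both, every KO value was below every WT value (-1.48, adjusted p = 0.0106, and -0.89, adjusted p = 0.0238). Stat3 itself, at 300.2, 289 and 312 CPM in WT and 323, 321 and 308 CPM in KO, differed by 0.08 (adjusted p = 0.763). Without WT DSS replicate 1, KO DSS replicate 1 or KO DSS replicate 2, Lrg1 alone of this list passed.

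Secreted antimicrobial genes went both ways, with 2 of 20 lower and 3 higher in KO (1.34% and 1.77% over all genes tested). Reg3b, which encodes a bactericidal lectin, was at 179.8, 175 and 240.0 CPM in WT DSS and 19.3, 26.1 and 20.8 CPM in KO DSS, an 8.99-fold difference (log2 fold change -3.16 ± 0.49 (SE), adjusted p = 0.00264). The separation was of like size without DSS (-3.87, adjusted p = 0.000566; interaction adjusted p = 0.832), although untreated WT ranged widely, at 81.3, 75.6 and 374 CPM. Reg3g, its close paralogue, differed by -1.12 and did not pass (adjusted p = 0.205). Pla2g2a, which encodes a secreted phospholipase that kills Gram-positive bacteria, was at 25.97, 28.7 and 33.1 CPM in WT and 5.13, 6.82 and 7.34 CPM in KO (log2 fold change -2.18 ± 0.36 (SE), adjusted p = 0.00402). C57BL/6 mice are known to carry a disrupted Pla2g2a gene, so this is a transcript level and says nothing of the enzyme. The 3 higher ones were Lyz2 (1.85), a lysozyme gene also read in myeloid cells, Reg4 (1.06) and, named after its value was seen, Ang4 (1.25). The calls of Reg3b and Pla2g2a remained without any 1 library; those of Lyz2 and Reg4 were lost in 2 and 5 of the 6 such fits, with adjusted p up to 0.0528 and 0.125. With leukocyte markers as a term, Reg3b differed by -0.80 (adjusted p = 0.32) and Pla2g2a still passed.

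Muc1, which encodes a transmembrane mucin, was at 87.01, 109 and 104 CPM in WT DSS and 12.7, 16.2 and 12.6 CPM in KO DSS. The KO libraries under DSS sat beside the untreated libraries of both genotypes, at 14.3, 11.8 and 8.34 CPM in WT and 8.89, 10.9 and 7.49 CPM in KO, so that WT DSS stood alone. The difference under DSS was 7.21-fold (log2 fold change -2.85 ± 0.22 (SE), adjusted p = 3.57e-06) and exceeded the untreated difference of -0.34 (interaction adjusted p = 0.000408). Of the 6 transmembrane mucin genes tested, Muc1 was the one past the threshold; Muc13 and Muc3 differed by -0.17 (adjusted p = 0.556) and 0.11 (0.677). Plet1, a surface protein gene of regenerating colonic epithelium, was at 204, 184 and 174 CPM in WT DSS and 21.4, 23.4 and 26.2 CPM in KO DSS (log2 fold change -2.98 ± 0.16 (SE), adjusted p = 1.64e-07). Its KO level under DSS equalled the untreated KO level within their spread (23.7, 22.9 and 25.8 CPM), and its untreated difference was -1.80 (interaction adjusted p = 0.00997). Plet1 shares 261 exonic bases with the antisense gene Plet1os.

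Tac1, the gene of substance P and neurokinin A, was at 88.5, 89.7 and 82.5 CPM in WT DSS and 10.3, 12.2 and 16.1 CPM in KO DSS, against 3.21, 6.07 and 4.02 CPM in untreated WT (log2 fold change -2.75 ± 0.26 (SE), adjusted p = 2.91e-05). Ido1, which encodes the enzyme that starts tryptophan breakdown to kynurenine, was at 89.6, 88.4 and 128 CPM in WT DSS and 14.1, 23.9 and 18.7 CPM in KO DSS (log2 fold change -2.43 ± 0.24 (SE), adjusted p = 3.94e-05). Untreated, it was higher in KO (1.11, adjusted p = 0.0323), which is the opposite order (interaction adjusted p = 6.76e-05). Wars, a tryptophan tRNA synthetase gene, was the other lower member of the 8 kynurenine and aryl hydrocarbon receptor genes tested (-0.55, adjusted p = 0.00417), beside 1.34% lower over all genes tested. With leukocyte markers as a term, Tac1 passed and Ido1 (-1.47, adjusted p = 0.1) and Wars (-0.53, 0.181) did not.

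Genes of the epithelial NADPH oxidase, which releases hydrogen peroxide at the luminal surface, were lower in KO. Duoxa2, the maturation factor gene, was at 68.03, 66.3 and 65.7 CPM in WT DSS and 25.6, 23.6 and 25.5 CPM in KO DSS (log2 fold change -1.42 ± 0.17 (SE), adjusted p = 0.000291). Duox2, the oxidase gene, was at 125, 81.5 and 125 CPM in WT and 57.1, 57.7 and 51.1 CPM in KO (-0.997, adjusted p = 0.00375). WT DSS replicate 2 held the lowest WT value of Duox2 and was still above every KO library. Gpx2, a glutathione peroxidase gene, was the third of 3 lower genes among the 29 oxidase and antioxidant genes tested (-0.63, adjusted p = 0.0436), and its call was lost in 5 of the 6 fits without 1 library. Over all genes tested, 1.34% were lower. Nos2, which makes nitric oxide, did not pass (0.12, adjusted p = 0.849). Duoxa2 and Duoxa1 share 682 exonic bases, so reads of this pair are uncertain. When leukocyte markers were a term, neither Duoxa2 (-1.51, adjusted p = 0.0616) nor Duox2 (-0.93, 0.204) passed.

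Clca4b and Clca4a, neighbouring genes of the calcium-activated chloride channel regulator family, went opposite ways. Clca4b was at 671, 605 and 635 CPM in WT DSS and 135, 132 and 143 CPM in KO DSS (log2 fold change -2.22 ± 0.18 (SE), adjusted p = 7.46e-06), and Clca4a at 8.35, 9.47 and 10.1 CPM in WT and 24.8, 19.1 and 29.9 CPM in KO (log2 fold change 1.40 ± 0.25 (SE), adjusted p = 0.0065). In both genes the genotypes did not overlap under DSS, and both interactions passed (adjusted p = 0.000508 and 0.00476). A share of 24.8% of the 50-base stretches of Clca4b and 41.0% of those of Clca4a occur elsewhere in the transcriptome, mainly in each other and in a pseudogene, so their split is uncertain. With leukocyte markers as a term Clca4b passed (-3.03, adjusted p = 2.18e-05) and Clca4a did not (0.32, 0.664). Smpdl3b, a sphingomyelin phosphodiesterase-like gene (26.1, 26.8 and 30.5 CPM in WT, 7.07, 4.15 and 8.59 CPM in KO, -2.07, adjusted p = 0.00264), Casp14 (53.1, 38.1 and 51.2 and 15.4, 12.9 and 11.5, -1.84, 0.000136) and 2210407C18Rik (28.7, 34 and 37.5 and 7.96, 8.90 and 12.6, -1.76, 0.00104) were 3 further genes of the 12 largest decreases under that rule, with no overlap between genotypes. With the same term Smpdl3b (-1.70, adjusted p = 0.214) and Casp14 (-1.54, 0.0879) did not pass.

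**Figure D2:**
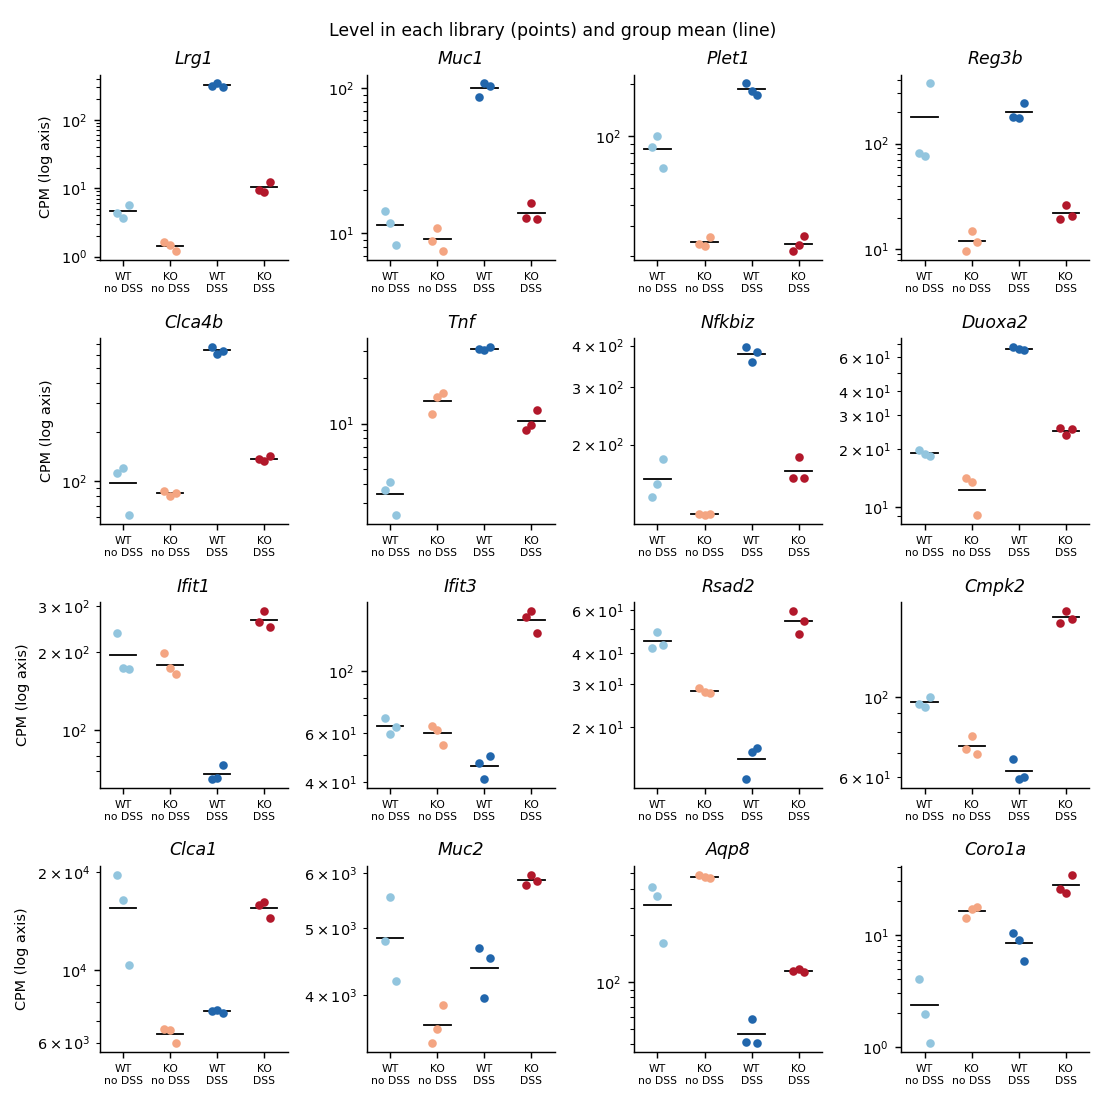
Each panel is a gene, with the CPM of every library on a log axis as points (blue shades WT, red shades KO, pale for untreated) and the group mean as a line. For Lrg1, Muc1, Clca4b, Nfkbiz and Duoxa2 the 3 WT DSS points stand above all other libraries, and for Ifit1, Ifit3, Rsad2 and Cmpk2 the 3 WT DSS points are the lowest while the KO DSS mean is the highest of the 4 group means.

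Type I interferon-stimulated genes had more members higher in KO under DSS than any other of the 44 lists. Of 47 tested, 33 were higher and 0 lower (70.2%, against 1.77% of all genes tested), with log2 fold changes of 0.39 to 1.96 among the 33 and a median of 0.74 over the 47. In 37 of the 47 every KO DSS value was above every WT DSS value (11.7% over all genes tested), and the summed level of the list was 7290.0 to 7425 CPM in WT DSS and 11360.0 to 11560.0 CPM in KO DSS. Without DSS the same list had a median of -0.36, with 0 genes higher and 11 lower in KO, and 32 of the 47 passed the interaction test, all 32 with the DSS difference the more positive. WT DSS had the lowest of the 4 group means for 31 of the 47 genes and KO DSS the highest for 40. These genes carry out the antiviral programme that follows activation of the interferon receptor.

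Ifit1, which encodes a protein that binds foreign RNA ends, was at 64.99, 65.6 and 73.7 CPM in WT DSS and 260.1, 288 and 249.4 CPM in KO DSS, against 236, 173 and 172 CPM in untreated WT. The WT libraries under DSS were the lowest of the 12 and the KO libraries under DSS the highest, a 3.90-fold difference (log2 fold change 1.96 ± 0.14 (SE), adjusted p = 2.13e-06; untreated -0.12, adjusted p = 0.759; interaction adjusted p = 4.52e-05). Ifit3, its partner gene, was at 46.9, 41.1 and 49.6 CPM in WT and 156, 165 and 137 CPM in KO (log2 fold change 1.73 ± 0.13 (SE), adjusted p = 3.57e-06); 51.2% of its 50-base stretches occur in the paralogue Ifit3b, so part of its reads could belong there. Rsad2, the gene of the antiviral enzyme viperin, was at 12.3, 15.9 and 16.5 CPM in WT and 59.6, 47.9 and 54.2 CPM in KO (log2 fold change 1.85 ± 0.17 (SE), adjusted p = 1.49e-05), and it was lower in KO without DSS (-0.67, adjusted p = 0.03). Cmpk2, a nucleotide kinase gene next to Rsad2, was at 67.3, 59.2 and 60.2 CPM in WT and 160.3, 173 and 164 CPM in KO (log2 fold change 1.41 ± 0.11 (SE), adjusted p = 3.57e-06). All 4 kept their call without any 1 library and with leukocyte markers as a term. Irf7, the transcription factor gene that amplifies this response and that was chosen after its values were seen, was at 410.5, 405 and 377 CPM in WT and 776, 726 and 699.7 CPM in KO (log2 fold change 0.88 ± 0.08 (SE), adjusted p = 2.89e-05). Among the members that did not pass, Ly6e differed by 0.08 (adjusted p = 0.845).

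The interferon-stimulated response element, a short DNA element of interferon-induced promoters, was searched in RefSeq promoters (GRCm38.p6) as its core, 2 copies of GAAA with 2 free bases between, on both strands. A promoter in that table was found for 25 of the 33 higher genes of the list, and 15 of these held the core (60%), against 3.93% of 9475 tested genes with a promoter and 3.44% of all 32851 promoters. Of the whole list, passing or not, 33 tested genes had a promoter there and 17 held the core (51.5%). The genes were listed as interferon-stimulated, so this share reflects the list and does not test the genotype difference. Over all genes past the threshold the core was in 38 of 169 higher genes (22.5%), the 15 of the list among them, and in 1 of 127 lower genes (0.787%). The kB consensus was in 13.6% of higher, 12.6% of lower and 12.1% of tested genes, and the STAT site TTCNNNGAA in 10.7%, 7.87% and 8.42%. Each motif was searched on both strands and counted on its own, so matches of different motifs may overlap. These are letter matches in a window around the gene start and not measured binding. The 3 stretches below end at the base before the RefSeq gene start and are shown because they belong to the named interferon genes with the largest differences; Lrg1, the largest decrease, is shown beside them. Each reads 5′ to 3′ on the gene's strand, and the capitals mark the core on the opposite strand (2 copies of TTTC with 2 free bases between).
Ifit1, chr19:34640639-34640888, plus strand: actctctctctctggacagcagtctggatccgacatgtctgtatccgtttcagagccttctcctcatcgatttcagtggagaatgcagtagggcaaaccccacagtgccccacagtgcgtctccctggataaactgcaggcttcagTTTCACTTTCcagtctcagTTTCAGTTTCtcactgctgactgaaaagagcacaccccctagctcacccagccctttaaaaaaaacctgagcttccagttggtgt
Ifit3, chr19:34583279-34583528, plus strand: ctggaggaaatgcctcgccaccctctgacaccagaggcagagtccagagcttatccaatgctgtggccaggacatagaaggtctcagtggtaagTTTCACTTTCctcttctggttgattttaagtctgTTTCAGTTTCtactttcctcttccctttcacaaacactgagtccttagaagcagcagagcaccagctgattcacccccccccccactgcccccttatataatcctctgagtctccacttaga
Rsad2, chr12:26456453-26456702, minus strand: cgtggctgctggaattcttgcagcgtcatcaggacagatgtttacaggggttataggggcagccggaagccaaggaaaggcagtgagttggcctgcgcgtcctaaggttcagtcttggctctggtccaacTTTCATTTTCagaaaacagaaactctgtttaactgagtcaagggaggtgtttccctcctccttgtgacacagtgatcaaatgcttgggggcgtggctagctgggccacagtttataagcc
Lrg1, chr17:56121947-56122196, minus strand: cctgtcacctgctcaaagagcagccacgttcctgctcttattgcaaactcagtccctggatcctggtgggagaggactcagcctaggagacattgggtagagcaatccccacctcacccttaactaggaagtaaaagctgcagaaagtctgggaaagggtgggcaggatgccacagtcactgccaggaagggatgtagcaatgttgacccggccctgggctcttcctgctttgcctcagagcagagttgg
The core begins 104 and 85 bases before the start of Ifit1, 156 and 122 bases before that of Ifit3 and 120 bases before that of Rsad2. The Lrg1 stretch held none of the 3 motifs. Cmpk2, another interferon gene named above, had a promoter in the table, not shown, that held none of them either.

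The interferon-gamma-inducible GTPases, which attack the vacuoles of intracellular microbes, were also higher in part. Of 18 tested, 6 were higher (1.77% of all genes tested were) and 0 lower, and the median was 0.54. Irgm1 was at 426, 403 and 455 CPM in WT DSS and 661, 623 and 637 CPM in KO DSS (log2 fold change 0.58 ± 0.09 (SE), adjusted p = 0.00218), Gbp3 at 130.4, 125 and 149 CPM and 274, 275 and 261 CPM (log2 fold change 1.002 ± 0.14 (SE), adjusted p = 0.00113) and Gm12250, also called Irgb10, at 92.2, 87.3 and 94.4 CPM and 174, 181 and 139 CPM (log2 fold change 0.85 ± 0.12 (SE), adjusted p = 0.000863). None of these 3 overlapped between genotypes, and their untreated differences were -0.02, 0.00 and -0.12. Gbp9 was at 11.4, 9.07 and 12.2 CPM in WT and 45.97, 33.4 and 31.3 CPM in KO (1.76, adjusted p = 0.0065). Gbp2, a member that did not pass, was at 329, 326 and 380.1 CPM in WT and 330.1, 393 and 331 CPM in KO (adjusted p = 0.959). Plscr2, a phospholipid scramblase gene outside these lists, was at 4.56, 5.87 and 4.24 CPM in WT and 20.2, 18.98 and 19.3 CPM in KO (log2 fold change 1.98 ± 0.29 (SE), adjusted p = 0.00173). Genes of antigen presentation did not share the pattern under DSS: 0 of 9 MHC class II genes passed in edgeR or in DESeq2, with 2 at an unadjusted p under 0.05 in edgeR, and of 24 MHC class I and immunoproteasome genes 0 were higher and 1, H2-Q1, was lower (-0.93, adjusted p = 0.0104), a call lost in 3 of the 6 fits without 1 library. Untreated, 6 of the 9 MHC class II genes were higher in KO (1.72% of all genes tested were), with a median of 0.79. The interaction passed for 5 of the 9, all 5 with the DSS difference below the untreated one (0.527% over all genes tested).

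Beside the interferon genes, markers of leukocytes were also higher in KO under DSS. The summed level of 14 pan-leukocyte markers was 88.03 to 117 CPM in WT DSS and 235 to 288 CPM in KO DSS, and that of 25 T lymphocyte markers was 54.8 to 80.6 CPM and 169 to 254 CPM. The pan-leukocyte sum was also higher in untreated KO (158 to 188 CPM) than in untreated WT (50.3 to 72.8 CPM), where the interferon list had a median below 0. With the mean log2 level of the pan-leukocyte markers as a term in the fit, 7 of the 47 type I interferon genes and 6 of the 18 GTPase genes passed, and the median of the 47 was 0.62. The part of leukocyte RNA in the other interferon genes was not tested. Without 1 library, 20 (WT DSS replicate 1) to 28 (WT DSS replicate 3) interferon genes passed.

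The leukocyte transcripts were then taken gene by gene. Of 54 pan-leukocyte, T lymphocyte and myeloid markers tested, 12 were higher (1.77% of all genes tested were) and 0 lower, with a median of 1.38. Coro1a, an actin regulator of leukocytes, was at 10.3, 9.07 and 5.87 CPM in WT DSS and 25.8, 23.6 and 34.5 CPM in KO DSS (log2 fold change 1.73 ± 0.33 (SE), adjusted p = 0.0104). Ptprc, which encodes CD45, was at 13.5, 14.9 and 15.5 CPM in WT and 47.2, 28.9 and 38.2 CPM in KO (log2 fold change 1.38 ± 0.28 (SE), adjusted p = 0.0134), and the actin-bundling gene Lcp1 at 36.1, 34 and 25.9 CPM and 79.2, 62.4 and 67.6 CPM (log2 fold change 1.12 ± 0.18 (SE), adjusted p = 0.00323). Genotypes did not overlap in any of these. Genes of intraepithelial T lymphocytes included Rgs1 (16.7, 16.5 and 9.46 CPM in WT, 48.97, 54.3 and 77.9 CPM in KO, 2.08, adjusted p = 0.000251), the interleukin-2 receptor gene Il2rb (2.28, 2.40 and 1.47 and 11.8, 7.71 and 15.4, 2.49, 0.00546) and Cd7 (0.911, 2 and 1.63 and 6.01, 5.63 and 9.28, 2.19, 0.0136). Cd3e, the defining T cell receptor subunit, held 13 to 16 counts per WT DSS library and 23 to 59 per KO DSS library and did not pass (adjusted p = 0.148). The myeloid sum was 253 to 273 CPM in WT and 280.1 to 310.0 CPM in KO, with Laptm5 (1.67, adjusted p = 0.0143) and Lyz2 (1.85, 0.00869) as the 2 of 20 past the threshold. Of neutrophil genes, Mpo had 0 counts in all 6 libraries. S100a8 held 4 to 6 counts per WT DSS library and 1 to 3 per KO DSS library, and S100a9 0 to 1 and 0 to 2. Csf3r held 5 to 22 and 17 to 34. Ly6g, which is also in the wound and regeneration list, held 160 to 273 counts per WT DSS library and 88 to 207 per KO DSS library. No member of these 3 lists that passed under DSS passed the interaction test, and the untreated median of the 54 was 2.01. Msn (1.72), an actin-membrane linker gene read in many cell types, and Vim (1.52), 1 of 8 stromal markers tested, were higher as well. Leaving out each library in turn left 1 (without WT DSS replicate 3) to 4 of the 13 tested pan-leukocyte markers and 2 to 4 of the 22 T lymphocyte markers past the threshold. Rgs1, Il2rb and Lcp1 passed without any 1 library, while Coro1a, Ptprc, Cd7, Laptm5, Lyz2, Msn and Vim lost the call in 2, 4, 3, 4, 2, 2 and 3 of the 6 fits without 1 library.

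Of 5 B and plasma cell markers tested, 1 was lower in KO (1.34% of all genes tested were) and 0 higher. Igha, the immunoglobulin A heavy chain gene, was at 42.5, 50.01 and 43.9 CPM in WT DSS and 4.07, 6.38 and 14.7 CPM in KO DSS (log2 fold change -2.42 ± 0.50 (SE), adjusted p = 0.0146), and the sum of 19 B and plasma cell markers was 86.2 to 88.9 CPM in WT and 27.2 to 53.6 CPM in KO. Ighm, a member that did not pass, went the opposite way, with 11 to 19 counts per WT DSS library and 14 to 104 per KO DSS library (adjusted p = 0.123). For Igha, KO DSS replicate 3 held the highest KO value, and the call was lost in 3 of the 6 fits without 1 library.

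Several goblet cell genes were higher in KO under DSS. All 22 genes tested had a positive sign, 6 passed (1.77% of all genes tested were higher) and 0 were lower, the median was 0.42, and the list sum was 16080.0 to 18380.0 CPM in WT and 28210.0 to 31890.0 CPM in KO. Clca1 and Muc2, given below, made up most of this sum in both groups, so the sum says little of the other members. Clca1, the secreted mucus-processing protease gene and one of the most abundant transcripts here, was at 7477, 7559 and 7386 CPM in WT DSS and 15894, 16174 and 14535 CPM in KO DSS. The KO DSS libraries thus lay within the range of untreated WT (19686, 16423 and 10415 CPM), while untreated KO was low (6607, 6534 and 5974 CPM). The genotype difference was 2.08-fold under DSS (log2 fold change 1.06 ± 0.16 (SE), adjusted p = 0.00177) and of the opposite sign without it (-1.28, adjusted p = 0.000264; interaction adjusted p = 5.55e-05). Muc2, the gel-forming mucin gene, followed the same order with a smaller difference, at 4673, 3958 and 4522 CPM in WT and 5771, 5974 and 5846 CPM in KO (0.42, adjusted p = 0.0313; untreated -0.42). Atoh1, the transcription factor gene that specifies secretory cells, was at 73.7, 68.5 and 68 CPM in WT and 111, 117 and 97.3 CPM in KO (0.63, adjusted p = 0.0127), and unlike Clca1 it was also higher in KO without DSS (0.68). Spdef, a later factor of the lineage, differed by 0.04 (adjusted p = 0.963), and the trefoil factor gene Tff3 by 0.42 (0.472). Clca1 passed without any 1 library, whereas Muc2 passed in none of these 6 fits nor with the replicate number as a block (adjusted p = 0.0634 there), and Atoh1 lost its call in 3 of them. Leaving out each library in turn left 1 of the 22 (without WT DSS replicate 2 or KO DSS replicate 2) to 3 past the threshold. With leukocyte markers as a term, 0 of the 22 passed and the median was -0.01.

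Among enzymes that build mucin O-glycans, 3 of 37 were higher and 3 lower (1.77% and 1.34% over all genes tested). St6galnac1 (ENSMUSG00000009588, chr11:116765025-116775507, minus strand, protein coding), which adds sialic acid to the first sugar of mucin glycans, had 0 counts in all 3 WT DSS libraries and was at 138, 145 and 111 CPM in KO DSS. Against a floor of 3 counts per library it was at least 295-fold higher in KO (adjusted p = 3.57e-06). The same split held without DSS, at 0, 0 and 2.01 CPM in WT and 131, 128 and 127 CPM in KO. Its neighbours Gm11735, a pseudogene, at 4.71, 1.87 and 1.14 CPM in WT and 56.9, 66.1 and 58.9 CPM in KO, and BC018473, at 0.911, 0.4 and 0.163 CPM and 27.9, 19.4 and 21.6 CPM, separated in the same way (4.55 and 5.49; BC018473 was chosen after its values were seen). Gm11735 shares 53.4% of its 50-base stretches with St6galnac1, so its reads could belong to that gene, and St6galnac2, 0.34 (adjusted p = 0.492), did not pass. The part of a strain or linked-sequence difference between the WT and KO mice in this split, which was present with and without DSS, was not tested. St6gal1, another sialyltransferase gene, was higher in KO (85.04, 93.2 and 97.5 CPM in WT, 167, 133 and 144 CPM in KO, 0.69, adjusted p = 0.00828), and the core fucosyltransferase gene Fut8 was lower (-0.45, adjusted p = 0.0406). The call of St6gal1 was lost without WT DSS replicate 1 (adjusted p = 0.0656) and that of Fut8 in all 6 fits without 1 library.

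Absorptive colonocyte and transport genes that passed were more often higher than lower in KO. Of 22 mature colonocyte markers 8 were higher and 1, Clca4b, was lower, and of 40 ion and water transport genes, which share members with that list, 8 were higher and 1 lower. Over all genes tested, 1.77% were higher and 1.34% lower. A positive sign was seen in 14 of the 22 and in 22 of the 40. The summed colonocyte level overlapped between genotypes, at 26990 to 28200 CPM in WT DSS and 25170 to 28850 CPM in KO DSS. The transport sum was 11680 to 12100 CPM in WT DSS and 12100 to 13330 CPM in KO DSS. Aqp8, the water channel gene of surface colonocytes, was at 41.5, 58.3 and 40.8 CPM in WT DSS and 118, 122 and 116 CPM in KO DSS (log2 fold change 1.34 ± 0.23 (SE), adjusted p = 0.00517), both far below the untreated libraries (407, 356 and 179 CPM in WT and 491, 472 and 465 CPM in KO). Slc37a2, a sugar phosphate transporter gene, was at 425, 392 and 437 CPM in WT and 1019, 991 and 874 CPM in KO (log2 fold change 1.20 ± 0.12 (SE), adjusted p = 3.62e-05), a smaller difference than without DSS (2.30; interaction adjusted p = 0.00219). Tmigd1, a microvillus adhesion gene, was at 5.77, 6.80 and 7.66 CPM in WT and 12.02, 16.6 and 12.2 CPM in KO (1.01, adjusted p = 0.00769), and it was lower in KO without DSS (-0.72). Slc26a3, the main chloride and bicarbonate exchanger gene, did not pass (-0.16, adjusted p = 0.684). In the brush border list 2 genes were lower, the actin bundler gene Vil1 (-0.55, adjusted p = 0.0386) and the myosin gene Myo1d (-0.43, 0.0222). The sum of that list was lower in KO, at 6112 to 6357 CPM in WT DSS and 5548 to 5763 CPM in KO DSS. The call of Tmigd1 was lost without WT DSS replicate 1, that of Vil1 in every fit without 1 library and that of Myo1d in 4 of the 6. Without WT DSS replicate 3 or KO DSS replicate 2, 2 of the 40 transport genes were higher, and without WT DSS replicate 1, 4 of the 22 colonocyte markers were; with leukocyte markers as a term 0 were.

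Of 58 xenobiotic metabolism genes 9 were higher (1.77% of all genes tested were) and 0 lower, with a median of 0.08. Cyp2c68, a cytochrome P450 gene, was at 121, 115 and 113 CPM in WT DSS and 345, 341 and 308 CPM in KO DSS (log2 fold change 1.51 ± 0.15 (SE), adjusted p = 4.73e-05), with 43.3% of its 50-base stretches shared with paralogues. Adh1, the alcohol dehydrogenase gene, was at 1672, 1819.9 and 1579.8 CPM in WT and 2438, 2740.4 and 2441 CPM in KO (log2 fold change 0.59 ± 0.10 (SE), adjusted p = 0.00417; untreated 1.37, interaction adjusted p = 0.00716), and Abcb1a, which encodes the drug efflux pump P-glycoprotein, at 286, 218 and 256 CPM and 506, 513 and 408 CPM (log2 fold change 0.91 ± 0.12 (SE), adjusted p = 0.00072). None of these 3 overlapped between genotypes, and all 3 passed without any 1 library. In the fit with leukocyte markers as a term 1 of the 58 passed, and Cyp2c68 (1.18, adjusted p = 0.059) and Abcb1a (0.98, 0.0656) did not. Slc27a2, which activates fatty acids in peroxisomes, was at 5.47, 2.27 and 3.91 CPM in WT and 22.3, 21.1 and 14.7 CPM in KO (log2 fold change 2.32 ± 0.33 (SE), adjusted p = 0.0013). Without WT DSS replicate 1, WT DSS replicate 3 or KO DSS replicate 2, 4 of the 58 passed.

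The cyclin D1 gene and most genes of the replicative helicase were lower in KO. Ccnd1, which encodes cyclin D1, was at 166, 159 and 153 CPM in WT DSS and 55.3, 63.8 and 68.9 CPM in KO DSS (log2 fold change -1.34 ± 0.12 (SE), adjusted p = 1.49e-05). Of the 6 genes of the MCM2-7 helicase, which opens replication origins, 4 were lower (1.34% of all genes tested were) and 0 higher, and the median was -0.98, against 0.02 without DSS. These 6 were grouped outside the 44 lists, with earlier results of these data known. Mcm5 was at 48.7, 59.1 and 50.6 CPM in WT and 22.8, 22.7 and 29.9 CPM in KO (log2 fold change -1.07 ± 0.18 (SE), adjusted p = 0.00355; interaction adjusted p = 0.0123), and Mcm3 at 58.2, 44.8 and 40.1 CPM and 20.3, 24.02 and 23.6 CPM (log2 fold change -1.07 ± 0.18 (SE), adjusted p = 0.00507). In both every KO value was below every WT value. Over all 43 replication and mitosis genes tested, 6 were lower, 0 higher, 14 had a positive sign and the median was -0.13. The mitotic genes Mki67 (0.46, adjusted p = 0.278) and Top2a (-0.15, 0.721) did not pass. Ccnd1 shares 1100 exonic bases with LTO1, so part of its reads could belong to that gene. Ccnd1, Mcm3 and Mcm5 passed without any 1 library, and Mcm3 and Mcm5 did not pass with leukocyte markers as a term (-0.62, adjusted p = 0.377, and -0.89, 0.221).

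Several chaperone genes were lower in KO with smaller differences. Of 18 heat-shock genes tested 6 were lower (1.34% of all genes tested were) and 0 higher, 17 had a negative sign and the median was -0.31. Dnajb1, a co-chaperone gene, was at 219.7, 210.4 and 226 CPM in WT DSS and 154, 159 and 156 CPM in KO DSS (log2 fold change -0.48 ± 0.09 (SE), adjusted p = 0.0104), and the adaptor gene Stip1 at 113, 118 and 109 CPM and 76.4, 72.4 and 79.3 CPM (-0.58, adjusted p = 0.011). Hspa1a, an inducible HSP70 gene, was at 45.9, 47.1 and 61.97 CPM in WT and 20.7, 20.02 and 17.04 CPM in KO (log2 fold change -1.42 ± 0.19 (SE), adjusted p = 0.00072), less than its untreated difference (-3.34; interaction adjusted p = 0.00173), and 66.3% of its 50-base stretches occur elsewhere, mainly in Hspa1b. In the endoplasmic reticulum, 3 of 27 stress genes were lower: the calcium-binding chaperone gene Calr (530.1, 527 and 518 CPM in WT, 338, 369.6 and 367 CPM in KO, -0.55, adjusted p = 0.00343), Hyou1 (-0.87, 0.011) and Creld2 (-0.71, 0.0127). Without WT DSS replicate 1 Hspa1a alone of the heat-shock list passed, Hyou1 and Creld2 lost their calls in 4 and 3 of the 6 fits without 1 library, and with leukocyte markers as a term 0 of either list passed.

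Decreases that passed in other lists were few, though synthesis and glycolysis genes mostly had a negative sign. Cholesterol and fatty acid synthesis genes had a negative sign in 30 of 35, and 3 passed as lower, among them the desaturase gene Scd2 (-0.53, adjusted p = 0.0222) and Pmvk (-0.56, 0.0435). In 20 of the 35 every KO value was below every WT value, against 10.6% of all genes tested. Of 23 glycolysis genes 1 was higher and 2 were lower, Pfkp (397, 391 and 415 CPM in WT, 289, 279 and 263 CPM in KO, -0.53, adjusted p = 0.00342) and Pgam1 (-0.51, 0.0227). A negative sign was seen in 19 of the 23, 10 had every KO value below every WT value, and the median was -0.29. Their sum was 12370 to 13080 CPM in WT DSS and 10200 to 10670 CPM in KO DSS. Of 16 circadian clock genes 3 were lower, among them the activator gene Arntl (-0.69, adjusted p = 0.0238) and the repressor gene Cry1 (-1.15, 0.0191). The eicosanoid gene Pla2g4f (-0.77, 0.00558), the necroptosis kinase gene Ripk3 (-0.66, 0.00743), the inflammasome gene Nlrc4 (-0.56, 0.0483), the Ly6 surface protein gene Ly6c1 (-1.09, 0.0119) and the mRNA decay gene Zfp36 (-0.44, 0.0266) were each the 1 lower member of lists with 20, 29, 25, 11 and 27 genes tested (for Ly6c1 the Ly6 and Lypd list), beside 1.34% lower over all genes tested. Pfkp and Pla2g4f passed without any 1 library; Ripk3 lost its call without WT DSS replicate 1 alone, and Scd2, Pmvk, Pgam1, Arntl, Cry1, Nlrc4, Ly6c1 and Zfp36 lost theirs in 4, 6, 5, 5, 4, 6, 3 and 5 of the 6 such fits. With leukocyte markers as a term, Ly6c1 was the one gene named in this paragraph that passed (-1.95, adjusted p = 0.0107).

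Genes of wounded and renewing epithelium were split. Of 29 wound and regeneration markers 4 were lower (Plet1 above, the EGF-family ligand gene Hbegf, the matricellular gene Ccn1 and Ly6c1) and 2 higher, Pros1 and the keratin gene Krt23, the latter outside the rule for named genes and chosen after its values were seen (1.27, adjusted p = 0.0234). The shares over all genes tested were 1.34% lower and 1.77% higher. Pros1, the protein S gene, was at 11.1, 3.07 and 8.15 CPM in WT DSS and 27.6, 28.5 and 32.6 CPM in KO DSS (log2 fold change 2.0 ± 0.32 (SE), adjusted p = 0.00323; untreated -0.97). Hbegf was at 283, 283 and 286 CPM in WT and 194, 178 and 188 CPM in KO (log2 fold change -0.61 ± 0.10 (SE), adjusted p = 0.00284). Ccn1 was at 107, 97.3 and 104 CPM in WT and 50.9, 49.5 and 61.2 CPM in KO (log2 fold change -0.93 ± 0.15 (SE), adjusted p = 0.00323), with the opposite order untreated (0.75, adjusted p = 0.0124). Pros1, Hbegf and Ccn1 passed without any 1 library, and none of them passed with leukocyte markers as a term (adjusted p = 0.156, 0.184 and 0.205). Of 21 stem cell and Wnt target genes, Sox9, a crypt transcription factor gene (56.5, 58.9 and 50.6 CPM in WT, 95.6, 99.5 and 99.4 CPM in KO, 0.83, adjusted p = 0.0139), and Reg4 (194, 245 and 204 CPM and 376, 478 and 485 CPM, 1.06, 0.0248) were higher; the defining stem cell gene Lgr5 held 0 to 21 counts per WT library and 0 to 7 per KO library and did not pass. Isx, a transcription factor gene of vitamin A handling, was lower (37.4, 37.7 and 29.03 CPM in WT, 14.9, 9.04 and 14 CPM in KO, -1.46, adjusted p = 0.00104) and by the same amount without DSS (-1.46), and did not pass with leukocyte markers as a term (-1.62, 0.0707). Chgb, an enteroendocrine granule gene, was higher (0.83, adjusted p = 0.0267), a call lost in 5 of the 6 fits without 1 library, as those of Sox9 and Reg4 were in 4 and 5. By edgeR, 0 of 15 tuft cell and 0 of 18 tight junction genes passed, with 1 and 6 of them at an unadjusted p under 0.05, and DESeq2 called 0 and 2.

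**Figure D3:**
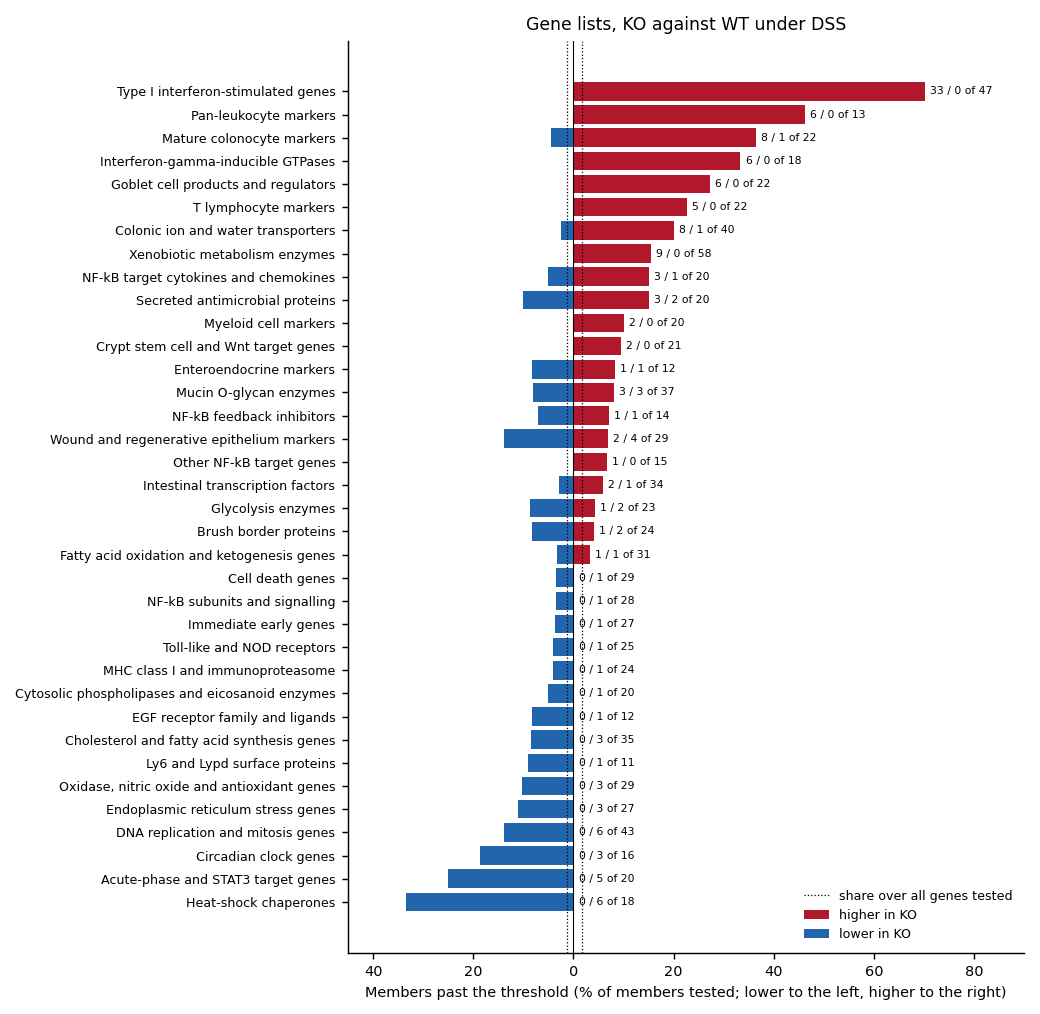
Bars show, for each of the 36 lists with at least 10 genes tested and 1 past the threshold, the percentage of tested members higher in KO under DSS (red, to the right) and lower (blue, to the left), with the counts printed as higher / lower of tested. Dotted lines mark the shares over all genes tested, 1.77% and 1.34%; the type I interferon list stands at 33 of 47 and the heat-shock list at 6 of 18.

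The genotype difference under DSS was set beside that in untreated cells, which used the other 6 libraries. Untreated, 436 genes passed (3.48% of those tested). Of these, 112 had also passed under DSS, which is 28.7% of the DSS list and 25.7% of the untreated list; 86 had the same direction and 26 the opposite one. Of the 26, 23 were higher in KO under DSS and lower in KO untreated, 10 of them from the type I interferon list, and the other 3 were Ido1, Tnf and Ccn1. The interaction, which tests whether the 2 genotype differences differ, passed for 213 genes (1.7%), 147 positive (1.17%) and 66 negative (0.527%). Of the 390 genes past the threshold under DSS, 111 passed it, 80 of them higher under DSS with a positive interaction and 22 lower with a negative one. For 73 of the 111 the untreated difference had not passed. For the remaining genes the test did not show a genotype difference under DSS that differed from the untreated one.

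**Figure D4:**
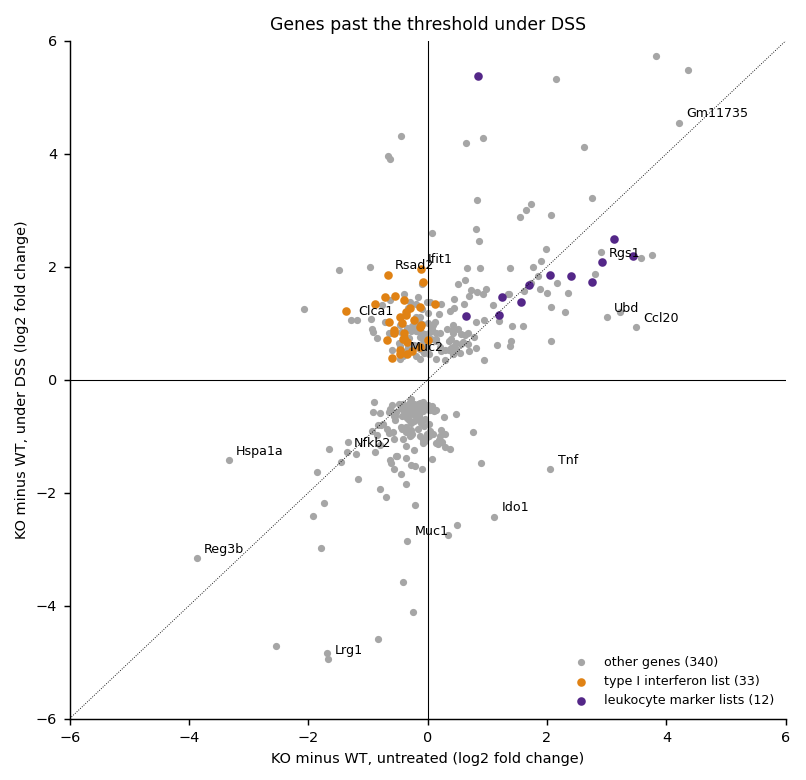
Each point is 1 of 385 genes past the threshold under DSS, with its log2 fold change between KO and WT untreated on the x axis and under DSS on the y axis; 5 genes beyond 6 on an axis are not drawn. The 33 interferon genes (orange) lie above 0 under DSS and mostly below 0 untreated, and the 12 leukocyte markers (purple) lie above 0 on both axes; the dotted line marks equal differences.

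Genes close to Nfkb2 on chromosome 19 passed more often than genes elsewhere. Within 10 Mb of Nfkb2, 10 of 135 genes tested passed under DSS (7.41%), 7 lower and 3 higher, against 372 of 12063 on other chromosomes (3.08%); this difference in shares was not tested. The genes named in this paragraph, other than Nfkb2, Cyp2c68, Ifit1 and Ifit3, were chosen after their values were seen. Pdzd7, 1.26 Mb away, was at 8.96, 7.07 and 10.4 CPM in WT DSS and had 0 counts in all 3 KO DSS libraries, at least 19.1-fold lower against a floor of 3 counts per library, and it also had 0 counts in untreated KO. Sfxn3, beside it, was at 37.96, 38.7 and 35.5 CPM in WT and 14.3, 16.9 and 16.4 CPM in KO (-1.24, adjusted p = 0.000572; untreated -1.66), and Ide, the insulin-degrading enzyme gene, 8.97 Mb away, at 169, 142 and 156 CPM and 68.6, 60.1 and 64.02 CPM (-1.28, 0.000155; untreated -0.88). Of the 10, 5 were also past the threshold untreated in the same direction. The Ifit gene cluster lies 11.7 Mb from Nfkb2, and its 5 genes past the threshold (Ifit1, Ifit3, Ifit2, Ifit3b and Ifit1bl1) had untreated differences of -0.12, -0.08, 0.11, -0.12 and 0.00. The part of linked sequence around the Nfkb2 allele in these differences was not tested.

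**Figure D5:**
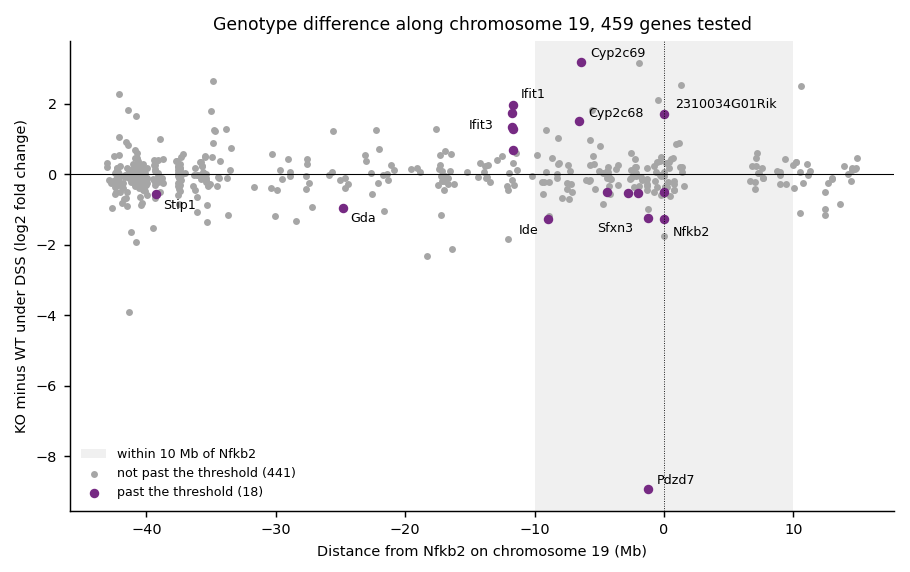
Each point is 1 of 459 chromosome 19 genes tested, with its distance from Nfkb2 in Mb on the x axis and its log2 fold change between KO and WT under DSS on the y axis. Purple points are the 18 genes past the threshold, Nfkb2 included, and the shaded band covers 10 Mb on either side, with Pdzd7 the lowest point.

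Of the 94 genes named by the fixed rule that passed, 52 passed without any 1 of the 6 libraries, and 27 passed with the pan-leukocyte marker level as a term. The 21 that passed in every alternative that tested them (a minimum of 10 counts in each library left St6galnac1 and Gm11735 untested) were Lrg1, Plet1, Muc1, Tac1, Clca4b, Pla2g2a, Tnf, Nfkbiz, Ccnd1 and 2210407C18Rik, all lower in KO, and Ifit1, Ifit3, Rsad2, Cmpk2, Irgm1, Gbp3, Gm12250, Adh1, Slc27a2, St6galnac1 and Gm11735, all higher.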

How the data were processed

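Messenger RNA of colonic epithelial cells was measured in 12 libraries, 3 in each of 4 groups, from 2 ng of total RNA with a SMART-seq2 protocol that marks neither strand nor single molecules, per the labels' protocols. The authors deposited whole-number counts per gene, 1 table per library; STAR 2.5.2b, featureCounts 1.5.0, GRCm38 and mm10 are named in the submitters' processing notes, and the annotation release and counting options are not given in the sources used here. Groups came from the sample titles. Of 46517 gene identifiers, 46005 took a symbol from GENCODE on GRCm38.

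Counts were fitted in edgeR 4.0.16 (R 4.3.3) over all 12 libraries, with 1 coefficient per group, TMM scaling and filterByExpr (minimum count 10, minimum total 15), which kept 12522 genes and 99.8% of counts. Quasi-likelihood F tests gave KO against WT under DSS, the same untreated, and their interaction, each with Benjamini-Hochberg adjustment over all genes tested; the standard error is the absolute log2 fold change divided by the square root of F. A prior count of 2 was added for log2 CPM. With 3 libraries a group, the p-values rest on the spread between these samples. On simulated counts made from these libraries' means for the DSS contrast (12217 genes tested), 63 of 93 genes changed by a log2 value of 1 and 106 of 107 changed by 2 were called. Another 9 genes, left unchanged, were called too. Only genes with higher mean counts were changed, the groups were otherwise alike, and the spread followed expression level alone. These shares therefore do not hold for genes with low counts.

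Members and lists were chosen with earlier results of these data known. Named genes were Nfkb2, Rela, Relb, Rel, Nfkb1 and Nfkbia, up to 12 genes with the largest difference in each direction (mean log2 CPM at least 3, no overlap between genotypes), and up to 3 passing members of each of 44 lists with the smallest p (mean log2 CPM at least 1), plus up to 2 members of a list that did not pass. A few genes that this rule names are not reported here; they remain in the counts. Exon overlap and shared 50-base stretches came from GENCODE transcripts. Promoters came from RefSeq on GRCm38.p6. Alternatives were DESeq2 1.42.0, its size factors, other count filters, only the 6 DSS libraries, the replicate number as a block, pan-leukocyte marker level as a covariate, and leaving out each library.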

Additional observations from a re-analysis of the deposited data

Results flagged for a closer look

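For 35 of the named genes the genotype difference under DSS differed from the untreated one by edgeR's interaction test, with adjustment over all genes tested. Each value is the DSS log2 difference between KO and WT minus the untreated one, with its adjusted p in parentheses.

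Genes that passed as lower in KO under DSS and as higher in KO untreated were Tnf -3.64 (5.54e-05), Ido1 -3.54 (6.76e-05) and Ccn1 -1.68 (0.000537). Genes that passed as lower in both, with the larger difference under DSS, were Lrg1 -3.27 (6.76e-05), Plet1 -1.18 (0.00997) and Ccnd1 -0.83 (0.0156). Genes lower in KO under DSS whose untreated difference did not pass were Tac1 -3.09 (0.000537), Muc1 -2.51 (0.000408), Lbp -2.38 (0.00967), Clca4b -2.0 (0.000508), Casp14 -1.48 (0.0126), Mcm5 -1.26 (0.0123), Ripk3 -0.94 (0.0095), Nfkbiz -0.82 (0.0119) and Wars -0.65 (0.0159). Genes that passed as higher in both, with the smaller difference under DSS, were Ccl20 -2.56 (0.0013), Ubd -1.90 (0.00675), Slc37a2 -1.09 (0.00219) and Adh1 -0.79 (0.00716). Nfkbia -1.33 (0.000206) passed as higher in KO untreated and did not pass under DSS.

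Genes that passed as higher in KO under DSS and as lower in KO untreated were Rsad2 2.53 (4.52e-05), Clca1 2.34 (5.55e-05), Reg4 2.25 (0.00179), Tmigd1 1.73 (0.00133) and Muc2 0.84 (0.00456). Genes higher in KO under DSS whose untreated difference did not pass were Pros1 2.97 (0.00179), Ifit1 2.08 (4.52e-05), Clca4a 2.03 (0.00476), Ifit3 1.82 (6.6e-05), Cmpk2 1.82 (1.95e-05), Abcb1a 1.25 (0.00094), Gbp3 1.00 (0.0158), Gm12250 0.97 (0.0057) and Irgm1 0.60 (0.0208). Hspa1a 1.91 (0.00173) passed as lower in both, with the smaller difference under DSS.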

How the results depend on the processing

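The count of 390 genes past the threshold under DSS was 662 with DESeq2, 642 with no filter on low counts, 83 with the pan-leukocyte covariate and 160 to 231 without 1 library, lowest without WT DSS replicate 1. For genes of the fixed lists the count of 151 was 35 with the covariate and 75 to 104 without 1 library. The untreated count of 436 was 790 with DESeq2, 703 with no filter, 195 with only the 6 untreated libraries, 95 with the covariate and 212 to 725 without 1 library, highest without WT untreated replicate 3. The interaction count of 213 was 368 with DESeq2, 356 with no filter and 152 to 350 without 1 library, highest without WT untreated replicate 3. The causes of these shifts were not tested, except that leaving out a library lowers the number of samples. The covariate moves with genotype, so the 2 terms share what they fit, and Nfkb2 itself did not pass with it (-1.0, adjusted p = 0.216).

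With DESeq2's size factors all 99 named genes kept their direction and side of the threshold. Rel turned from -0.07 to 0.95 with the covariate, 0.03 without WT DSS replicate 3 and 0.10 without KO DSS replicate 2, within a range of -0.21 to 0.10 without 1 library. Nfkb1 turned from 0.16 to -0.57 with the covariate and to -0.12 without WT DSS replicate 1, within -0.12 to 0.55 without 1 library, and Rela from 0.24 to -0.52 with the covariate.

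Replicate numbers were checked for a pairing of libraries. In their deviations from the group means, same-numbered KO and WT libraries correlated at -0.01, -0.01 and -0.12 under DSS and at -0.17, -0.18 and -0.05 untreated. Deviations from a mean of 3 libraries are tied to each other, so these values cannot show whether such libraries shared a preparation. Same-numbered KO libraries with and without DSS correlated at 0.20, 0.11 and 0.13, and WT ones at 0.01, 0.12 and 0.13. Every same-numbered KO pair was over 0.1. Differently numbered libraries across treatment reached 0.01 at most in KO and 0.00955 at most in WT. Yet differently numbered KO and WT libraries reached 0.28 untreated and 0.15 under DSS. These values therefore do not settle whether the KO libraries were paired across treatment. Blocking on the replicate number left 290 genes under DSS, 283 of them among the 390, 345 untreated, 338 of them among the 436, and 186 interaction genes, 181 of them among the 213. At 3 libraries a group, small differences in genes near the floor of 0.408 to 0.536 CPM were not detectable.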
